A study of Mus musculus with 12 samples.

Results

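The Myc network was followed through 6 genes: *Myc* and *Mycn*, which encode the activators c-MYC and N-MYC, *Max*, which encodes their shared partner, and *Mga*, *Mxi1* and *Mnt*, whose proteins compete for that partner. The genes were taken by symbol from the deposited table of transcript levels. All 6 were found among the 47940 genes that could be matched to the annotation, and all 6 were among the 12914 genes expressed highly enough to be tested.

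MYC proteins bind DNA only as a dimer with MAX, at a short sequence called the E-box. MXI1, MNT and MGA also dimerise with MAX and occupy the same sequence, but MXI1 and MNT bring in SIN3 histone deacetylase complexes, and MGA brings in a Polycomb complex named PRC1.6. In mouse embryonic stem cells (ESCs), MYC and N-MYC are known for driving growth and self-renewal and can stand in for each other in part, while MGA with PRC1.6 is known for keeping germline genes silent.

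RNA had been sequenced from 3 lines of E14 mouse ESCs of the 129 strain. All were grown in serum with LIF on gelatin without feeder cells, with 2 libraries per line, labelled as replicates. Parental ESCs carried no transgene. The other lines carried HA/FLAG-tagged *Pramel7*, driven by the CAG promoter and inserted at *Rosa26*, introduced with Cas9 and puromycin selection and expanded from single cells: the PRAMEL7 WT line expressed the intact protein, and the PRAMEL7 ΔN line a protein without its N-terminal region, labelled as a deletion of 50 amino acids, although the text of the study gives another length. PRAMEL7 is a substrate receptor of the early embryo, and the N-terminal region is the part through which it contacts the ubiquitin ligase scaffold CUL2. The study also reports that the protein without this region was bound less to chromatin. The comparison of both derived lines therefore asks what depends on the region, not on the contact with CUL2 alone. Each derived line was 1 clone, so an effect of the transgene and a property of the clone cannot be told apart.

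The libraries held 18255085 to 19856166 reads on genes. *Pramel7* was at 0.258 and 0.217 CPM (reads on a gene, scaled to sequencing depth) in parental ESCs, at 51.2 and 46.2 CPM in the PRAMEL7 WT line and at 397.7 and 430.9 CPM in the PRAMEL7 ΔN line, which fits the labels. The mutant transcript was therefore 8.50-fold more abundant than the intact one, and the effect of the deletion and that of the transgene level cannot be told apart. The 8 ESC markers examined summed to 5504 to 5901 CPM in parental ESCs, 5221 to 5495 CPM in the PRAMEL7 WT line and 6354 to 6370 CPM in the PRAMEL7 ΔN line. Of the 8, 3 fell in the PRAMEL7 WT line, against 16.3% of all genes tested. In the PRAMEL7 ΔN line 1 rose, against 6.25% of all genes. Between the derived lines, 4 were lower in the PRAMEL7 WT line, against 9.45% of all genes. The 6 markers of primitive endoderm summed to at most 11.6 CPM. Of the 4 tested, 2 rose and 1 fell in the PRAMEL7 WT line, against 8.71% and 16.3% of all genes. In the PRAMEL7 ΔN line 1 of these rose and 1 fell, against 6.25% and 13.6% of all genes. The 6 markers of primed or streak cells summed to 47.1 to 48.4 CPM in parental ESCs, 66.2 to 67.8 CPM in the PRAMEL7 WT line and 25.2 to 27.8 CPM in the PRAMEL7 ΔN line, mostly *Otx2*. The 6 trophectoderm markers summed to 67.2 to 103.2 CPM, 73.6 to 79.3 CPM and 41.9 to 43.8 CPM in the same order, mostly *Tfap2c*, with *Cdx2* at most at 0.211 CPM. *Eomes* went against this sum, from 4.90 and 4.28 CPM in parental ESCs to 9.13 and 10.6 CPM in the PRAMEL7 ΔN line. Of the 3 trophectoderm markers tested, 1 rose and 1 fell in that line. The 6 fibroblast markers summed to 52.2 to 71.4 CPM, 25.1 to 26.6 CPM and 46.8 to 53.7 CPM, mostly *Thy1* and *Pdgfrb*, and the 3 of them that were tested fell in the PRAMEL7 WT line. The part of these markers in the results was not tested.

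Within each line, the levels of the 6 genes were ordered by CPM per kilobase of annotated exon, the scale on which different genes can be compared. In parental ESCs *Mycn* was the most abundant at 50.8 ± 9.59 (SD, n = 2 here and below), followed by *Max* at 27.5 ± 0.942, *Myc* at 15.96 ± 1.49, *Mnt* at 12.1 ± 2.21, *Mga* at 10.1 ± 0.252 and *Mxi1* at 5.51 ± 0.715. The PRAMEL7 WT line had the same order, from *Mycn* at 44.5 ± 1.42 to *Mxi1* at 4.42 ± 0.109. In the PRAMEL7 ΔN line the order was different, because *Myc* stood at 27.5 ± 0.852, between *Mycn* at 29.7 ± 0.606 and *Max* at 26.1 ± 0.659, and *Mga* at 11.1 ± 0.745 stood above *Mnt* at 9.02 ± 0.504. The ranges of neighbours in these orders did not overlap. With the longest transcript as the length, however, *Max* led in the PRAMEL7 ΔN line at 48.3 per kilobase, and *Mnt* and *Mga* overlapped in parental ESCs.

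*Myc* rose in the PRAMEL7 ΔN line and not detectably in the PRAMEL7 WT line. The gene lies at chr15:61985391-61990374 (GRCm38, plus strand). Its transcript level was 46.2 and 40.5 CPM in parental ESCs, 43.6 and 42.4 CPM in the PRAMEL7 WT line, and 76.3 and 73.1 CPM in the PRAMEL7 ΔN line. Both PRAMEL7 ΔN libraries lay above all other libraries, whereas the parental and PRAMEL7 WT libraries overlapped. Relative to parental ESCs, *Myc* was 1.72-fold higher in the PRAMEL7 ΔN line (log2 fold change 0.77, SE 0.10, adjusted p = 0.00109, limma). In the PRAMEL7 WT line the log2 fold change was -0.0096, with a 95% interval from -0.24 to 0.22 (adjusted p = 0.956). The direct comparison of PRAMEL7 WT with PRAMEL7 ΔN gave a log2 fold change of -0.78 (adjusted p = 9.56e-04). In the PRAMEL7 ΔN line *Myc* passed the test under each of the 19 alternative settings and left-out libraries, with log2 fold changes of 0.68 to 0.87 when single libraries were left out. In bulk RNA, a change in the share of expressing cells and a change in the RNA of each cell cannot be told apart.

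*Mycn*, the more abundant of the pair in parental ESCs, moved the other way. It lies at chr12:12936093-12941914 (minus strand). *Mycn* was at 145 and 189.7 CPM in parental ESCs, 143 and 150.1 CPM in the PRAMEL7 WT line and 99.3 and 96.5 CPM in the PRAMEL7 ΔN line. The PRAMEL7 ΔN libraries lay below the other 4, and the parental pair was spread more widely than either derived pair. *Mycn* fell 1.71-fold in the PRAMEL7 ΔN line (log2 fold change -0.75, SE 0.12, adjusted p = 0.00288), a call kept under each of the 19 alternatives. In the PRAMEL7 WT line the log2 fold change was -0.18 (95% interval -0.44 to 0.09, adjusted p = 0.303), but without parental library 1 it became -0.37 (adjusted p = 0.00489), and without parental library 2 it was 0.017. *Mycn* was higher in the PRAMEL7 WT than in the PRAMEL7 ΔN line (log2 fold change 0.58, adjusted p = 0.00976). That call was lost when any PRAMEL7 WT or PRAMEL7 ΔN library was left out, at adjusted p = 0.0577 to 0.0961.

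**Figure D1:**
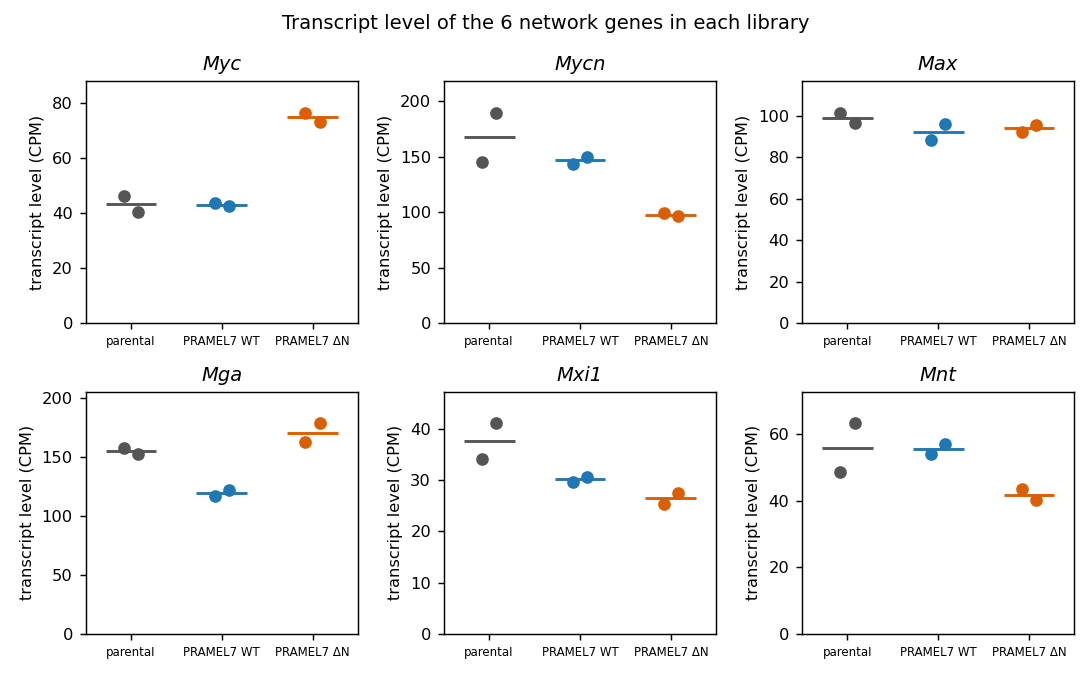
Transcript level in CPM of the 6 network genes in the 2 libraries of each line (points), with the mean as a bar; each panel starts at 0. *Myc* was highest and *Mycn* lowest in the PRAMEL7 ΔN line, *Mga* was lowest in the PRAMEL7 WT line, and the *Max* levels lay between 88.1 and 101.5 CPM in all libraries.

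Because *Myc* and *Mycn* moved in opposite directions in the PRAMEL7 ΔN line, their balance changed more than their sum. Per kilobase of exon, *Myc* made up 27.9% and 20.6% of the sum of both genes in the parental libraries and 26.9% and 25.5% in the PRAMEL7 WT libraries. In the PRAMEL7 ΔN libraries the share was 48.2% and 47.9%, far from the range of the other 4. The ratio of *Mycn* to *Myc* was accordingly 2.59 and 3.86 in parental ESCs, 2.71 and 2.92 in the PRAMEL7 WT line, and 1.07 and 1.09 in the PRAMEL7 ΔN line. The sum itself was 61.0 and 72.5 CPM per kilobase in parental ESCs, 59.6 and 61.2 in the PRAMEL7 WT line and 58.2 and 56.2 in the PRAMEL7 ΔN line. Both PRAMEL7 ΔN sums lay below those of the other 4 libraries. These shares and sums are given as values, with no test.

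**Figure D2:**
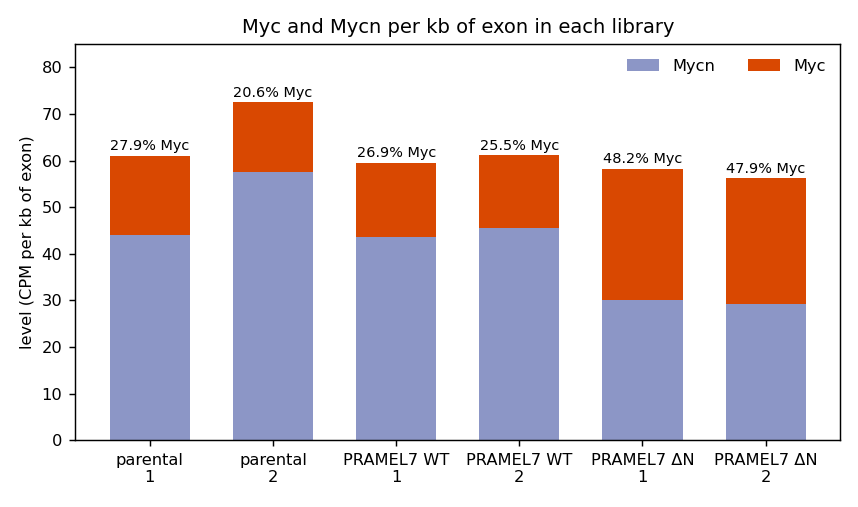
Level of *Mycn* (lower part) and *Myc* (upper part) in CPM per kilobase of exon in each of the 6 libraries, with the share of *Myc* in the sum printed above each bar. The share was 20.6% to 27.9% in the parental and PRAMEL7 WT libraries and 47.9% to 48.2% in the PRAMEL7 ΔN libraries, while the total height varied between 56.2 and 72.5.

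*Max*, which encodes the partner shared by the other members, was the steadiest of the 6. It lies at chr12:76937269-76962201 (minus strand). *Max* was at 101.5 and 96.7 CPM in parental ESCs, 88.1 and 96.2 CPM in the PRAMEL7 WT line and 92.2 and 95.6 CPM in the PRAMEL7 ΔN line. No comparison passed the test, and the 95% intervals of the log2 fold change ran from -0.31 to 0.10 for PRAMEL7 WT and from -0.28 to 0.12 for PRAMEL7 ΔN against parental ESCs. The *Myc* and *Mycn* sum relative to *Max* ranged from 2.16 to 2.70 in parental ESCs, 2.29 to 2.43 in the PRAMEL7 WT line and 2.12 to 2.27 in the PRAMEL7 ΔN line. Relative to the sum of *Mga*, *Mxi1* and *Mnt*, it was 2.37 and 2.45 in parental ESCs, 2.52 and 2.48 in the PRAMEL7 WT line and 2.46 and 2.31 in the PRAMEL7 ΔN line. Both PRAMEL7 WT libraries lay above the other 4, while the parental and PRAMEL7 ΔN libraries overlapped.

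*Mga* encodes a large scaffold with both a MAX-binding domain and a T-box, and lies at chr2:119897228-119969581 (plus strand). It was the member that differed from parental ESCs in the PRAMEL7 WT line. *Mga* was at 157 and 152 CPM in parental ESCs, 117 and 122 CPM in the PRAMEL7 WT line and 162 and 178 CPM in the PRAMEL7 ΔN line. The 3 lines did not overlap, with PRAMEL7 WT lowest. *Mga* fell in the PRAMEL7 WT line (log2 fold change -0.37, SE 0.09, adjusted p = 0.0144), a call lost without PRAMEL7 WT library 1 (adjusted p = 0.136) or library 2 (adjusted p = 0.0963). For PRAMEL7 ΔN the log2 fold change was 0.14 (95% interval -0.06 to 0.33, adjusted p = 0.314). The difference between the derived lines was -0.51 on the log2 scale (adjusted p = 0.00386). It was lost without PRAMEL7 WT library 1 (adjusted p = 0.0630) or PRAMEL7 ΔN library 2 (adjusted p = 0.0617).

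*Mxi1* and *Mnt* encode the SIN3-binding antagonists, and both were low in the PRAMEL7 ΔN line. *Mxi1*, at chr19:53310518-53375810 (plus strand), was at 34.2 and 41.0 CPM in parental ESCs, 29.6 and 30.7 CPM in the PRAMEL7 WT line and 25.4 and 27.5 CPM in the PRAMEL7 ΔN line. It fell in the PRAMEL7 ΔN line (log2 fold change -0.49, SE 0.12, adjusted p = 0.0202), while the PRAMEL7 WT line stood between at -0.30 (adjusted p = 0.0899). The *Mxi1* call in the PRAMEL7 ΔN line was lost without either library of that line (adjusted p = 0.147 and 0.0773) and, at adjusted p = 0.0531 to 0.0533, without either PRAMEL7 WT library. Without parental library 1, *Mxi1* passed the test in the PRAMEL7 WT line as well (log2 fold change -0.43, adjusted p = 0.0108). Of the exons of *Mxi1*, 194 bases overlap the antisense gene *Gm10197*, which was at 0 in all libraries.

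*Mnt*, at chr11:74830920-74845725 (plus strand), was at 48.7 and 63.1 CPM in parental ESCs, 53.9 and 56.8 CPM in the PRAMEL7 WT line and 43.4 and 40.1 CPM in the PRAMEL7 ΔN line. The PRAMEL7 ΔN libraries lay below the others. The log2 fold change was -0.40 against parental ESCs (adjusted p = 0.0533) and 0.40 for PRAMEL7 WT over PRAMEL7 ΔN (adjusted p = 0.0532), both just short of the threshold, and the latter passed it under 7 of the 19 alternatives. Without parental library 1, *Mnt* fell in the PRAMEL7 ΔN line (log2 fold change -0.59, adjusted p = 4.85e-04), and without parental library 2 the value was -0.22. *Mnt* lies on chromosome 11, where transcripts were low in both derived lines: the 1102 genes tested there had a median log2 fold change of -0.36 in the PRAMEL7 WT and -0.33 in the PRAMEL7 ΔN line. Relative to the median of its chromosome, *Mnt* was at 0.37 in the PRAMEL7 WT line (adjusted p = 0.0507) and at -0.09 in the PRAMEL7 ΔN line (adjusted p = 0.658), and the difference between the derived lines passed the test (0.46, adjusted p = 0.0216). The medians of the other members' chromosomes were between -0.09 and 0.03.

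**Figure D3:**
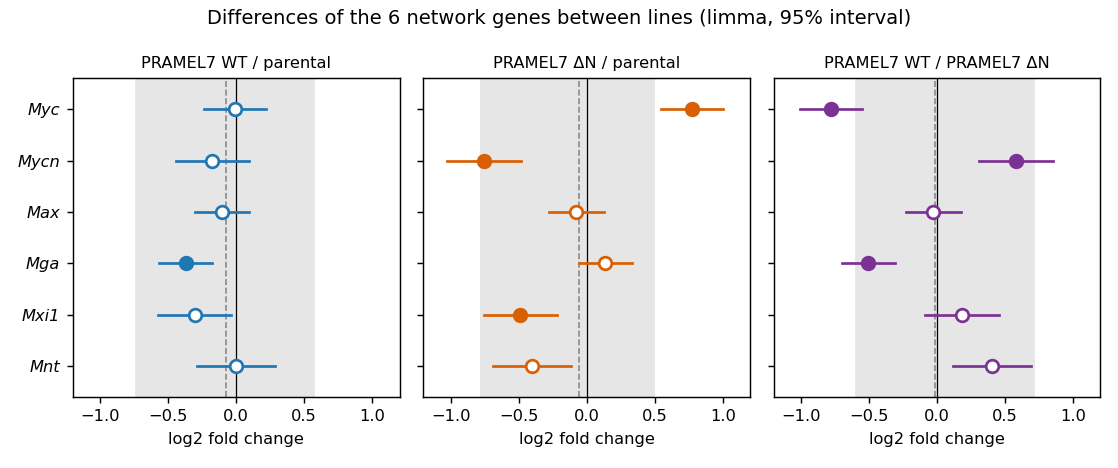
Log2 fold change of the 6 network genes in the 3 comparisons, with 95% intervals; filled points passed the test at an adjusted p below 0.05. The grey band holds the genes between the 5th and 95th percentile of all 12914 genes tested and the dashed line is their median. *Myc* lay above the band in PRAMEL7 ΔN against parental ESCs and below it in PRAMEL7 WT against PRAMEL7 ΔN, and *Mycn*, at -0.75 in PRAMEL7 ΔN against parental ESCs, was just inside its lower edge.

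Counted together, 1 of the 6 genes (*Mga*) passed the test in the PRAMEL7 WT line, against 25% of all genes tested (8.71% higher and 16.3% lower). In the PRAMEL7 ΔN line 3 of 6 passed it, *Myc* higher and *Mycn* and *Mxi1* lower, against 19.9% of all genes (6.25% higher and 13.6% lower). Between the derived lines 3 of 6 passed it, *Mycn* higher in the PRAMEL7 WT line and *Myc* and *Mga* lower, against 20.4% of all genes (10.9% higher and 9.45% lower). Libraries of the compared lines did not overlap for 3, 6 and 5 of the 6 genes in turn, against 64.2%, 57% and 68.8% of all genes, so the absence of overlap sets these genes little apart. The median log2 fold changes of the 6 genes were -0.14, -0.24 and 0.078, beside -0.078, -0.057 and -0.017 over all genes tested. Past the fold limit of 0.58 on the log2 scale were *Myc* and *Mycn* in the PRAMEL7 ΔN line and *Myc* between the derived lines. The excess of falling over rising genes depended on scaling: with median-ratio scaling 1673 genes rose and 1495 fell in the PRAMEL7 WT line, in place of 1125 and 2109, and 1122 rose and 1368 fell in the PRAMEL7 ΔN line, in place of 807 and 1759.

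The other MYC, MXD and MLX family genes extended the picture to the third MYC gene. Of 8 listed, 7 were tested, and *Mycs* was at 0 in all libraries. *Mycl*, which encodes L-MYC, was at 19.0 and 16.8 CPM in parental ESCs, 17.7 and 17.2 CPM in the PRAMEL7 WT line and 8.63 and 7.60 CPM in the PRAMEL7 ΔN line. *Mycl* therefore fell in the PRAMEL7 ΔN line (log2 fold change -1.05, SE 0.13, adjusted p = 9.43e-04), as *Mycn* did, and the call was kept under each alternative. The difference between the derived lines was 1.02. *Mlx*, which encodes the partner of the glucose-sensing MONDO proteins and lies on chromosome 11, fell in the PRAMEL7 WT line (log2 fold change -0.39, adjusted p = 0.0231) but stood at -0.021 relative to the median of its chromosome, and the call was lost without either PRAMEL7 WT library. *Mxd3*, chosen after its values were seen and at a low level, was at 4.59 and 5.37 CPM in parental ESCs, 9.42 and 10.6 CPM in the PRAMEL7 WT line and 6.83 and 5.75 CPM in the PRAMEL7 ΔN line. It encodes another SIN3-binding MAX partner and rose in the PRAMEL7 WT line (log2 fold change 0.88, adjusted p = 0.00523; 0.0643 without PRAMEL7 WT library 2). In all, 1 gene rose and 1 fell in the PRAMEL7 WT line and 1 fell in the PRAMEL7 ΔN line. Between the derived lines, 2 were higher in the PRAMEL7 WT line. The shares called were 28.6%, 14.3% and 28.6% in turn, against 25%, 19.9% and 20.4% of all genes.

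Of 16 cofactors of MYC and of its antagonists, 3 fell in the PRAMEL7 WT line and 3 fell in the PRAMEL7 ΔN line, and 1 was higher in the PRAMEL7 WT than in the PRAMEL7 ΔN line. *Ruvbl1*, an ATPase of the TIP60 and INO80 remodelling complexes, fell from a mean of 114 CPM in parental ESCs to 84.5 CPM in the PRAMEL7 WT line (log2 fold change -0.43, adjusted p = 0.00800) and 78.1 CPM in the PRAMEL7 ΔN line (-0.54, adjusted p = 0.00288). It lies on chromosome 6, and relative to the median of that chromosome the values were -0.13 (adjusted p = 0.385) and -0.61 (adjusted p = 0.00158). *Ep400*, the remodelling ATPase of the TIP60 complex, fell by 0.50 and 0.38 on the log2 scale in the same lines (adjusted p = 0.00928 and 0.0285). *Sin3b*, a scaffold of the corepressor that MXI1 and MNT recruit, was at 149 CPM in the PRAMEL7 WT and 109.6 CPM in the PRAMEL7 ΔN line, a log2 difference of 0.44 (adjusted p = 0.00615). The PRAMEL7 WT calls of *Ruvbl1* and *Ep400* were lost without either PRAMEL7 WT library, and the PRAMEL7 ΔN call of *Ep400* held in 1 of the 6 fits without one library (adjusted p up to 0.179). That of *Sin3b* was lost without either PRAMEL7 WT library or PRAMEL7 ΔN library 2 (up to 0.100). Relative to the medians of their chromosomes, 1 cofactor fell in the PRAMEL7 WT and 3 in the PRAMEL7 ΔN line. The share called was 18.8% in the comparisons with parental ESCs and 6.25% between the derived lines, no more than over all genes.

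Of 11 genes tested whose proteins act on the stability of MYC proteins, 2 rose and 3 fell in the PRAMEL7 WT line (45.5% called, against 25% of all genes). *Pim3*, a kinase that stabilises MYC, rose from 196 to 255 CPM (log2 fold change 0.38, adjusted p = 0.0114). *Gsk3b*, the kinase that marks MYC for degradation, fell from 58.9 to 41.3 CPM (log2 fold change -0.50, adjusted p = 0.00751), *Usp28*, a deubiquitinase of MYC, fell by 0.39 (adjusted p = 0.0148). *Huwe1*, a ubiquitin ligase of MYC and N-MYC, differed between the derived lines by -0.34 (adjusted p = 0.0193), a call lost without any one PRAMEL7 WT or PRAMEL7 ΔN library. Against parental ESCs, *Huwe1* was also among those that fell in the PRAMEL7 WT line (-0.36, adjusted p = 0.0144, limma). In the PRAMEL7 ΔN line its value was -0.015 (adjusted p = 0.925). For PRAMEL7 ΔN limma called 0 of the 11 genes, as did voom on whole reads, with 5 at an unadjusted p below 0.05, but relative to the medians of their chromosomes 2 passed the test as higher. The calls of *Pim3*, *Gsk3b* and *Usp28* were lost when either PRAMEL7 WT library was left out, at adjusted p up to 0.116, 0.0866 and 0.143.

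The 9 PRC1.6 partners of MGA gave 0 calls in the PRAMEL7 WT line with limma and with voom, with 2 at an unadjusted p below 0.05. With PRAMEL7 ΔN 2 rose and 1 fell, and 4 were lower in the PRAMEL7 WT than in the PRAMEL7 ΔN line (33.3% and 44.4% called, against 19.9% and 20.4% of all genes). Relative to the medians of their chromosomes, these counts became 1 higher and 1 lower with PRAMEL7 ΔN, and 1 lower between the derived lines. *Cbx3*, which encodes HP1 gamma, was at 47.7 CPM in parental ESCs, 41.5 CPM in the PRAMEL7 WT and 65.8 CPM in the PRAMEL7 ΔN line (log2 fold change 0.47 in PRAMEL7 ΔN, adjusted p = 0.0260, and -0.65 between the derived lines, adjusted p = 0.00585). *Rybp*, an adaptor of the complex, was at 57.0, 49.3 and 72.6 CPM in the same order. Both genes lie on chromosome 6, whose 603 genes tested had a median log2 fold change of -0.26 in the PRAMEL7 WT line, 0.25 in the PRAMEL7 ΔN line and -0.39 between them. Relative to that median, the difference of *Cbx3* between the derived lines was -0.28 (adjusted p = 0.129) and the rise of *Rybp* in the PRAMEL7 ΔN line was 0.27 (adjusted p = 0.114). *E2f6*, the E2F repressor of the complex, lies on chromosome 12 and was lower in the PRAMEL7 WT than in the PRAMEL7 ΔN line (17.3 against 27.8 CPM, log2 difference -0.65, adjusted p = 0.0193). That call was lost without either PRAMEL7 WT library or PRAMEL7 ΔN library 2 (adjusted p up to 0.180). The call of *Cbx3* in PRAMEL7 ΔN held in 2 and that of *Rybp* in 1 of the 6 fits without one library, and that of *Cbx3* between the derived lines was lost without either PRAMEL7 WT library or PRAMEL7 ΔN library 1.

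Calls among germline genes known as targets of PRC1.6 went both ways, except in the PRAMEL7 ΔN line against parental ESCs, where all were lower. Of 15 tested, 1 rose and 3 fell in the PRAMEL7 WT line and 4 fell in the PRAMEL7 ΔN line, with medians of -0.24 and -0.20 beside -0.078 and -0.057 over all genes. The share called was 26.7% in each of these comparisons, against 25% and 19.9% of all genes. Between the derived lines 5 were higher in the PRAMEL7 WT line and 3 lower (53.3% called, against 20.4% of all genes). *Stag3*, a meiotic cohesin subunit, was at 63.7 and 92.5 CPM in parental ESCs, 34.5 and 34.1 CPM in the PRAMEL7 WT line and 60.3 and 59.3 CPM in the PRAMEL7 ΔN line. It fell in the PRAMEL7 WT line (log2 fold change -1.14, SE 0.15, adjusted p = 0.00157). *Smc1b*, another meiotic cohesin subunit, was instead lowest in the PRAMEL7 ΔN line, at 2.56 and 4.91 CPM against 13.0 and 20.1 CPM in parental ESCs (log2 fold change -1.90, adjusted p = 0.00200), with the PRAMEL7 WT line between at 8.05 and 11.9 CPM. *Mael*, a factor of the piRNA pathway, also fell in the PRAMEL7 ΔN line (from 18.1 to 10.9 CPM, log2 fold change -0.69, adjusted p = 0.00607; 0.0692 without PRAMEL7 ΔN library 1). *Meioc*, a meiotic RNA-binding cofactor chosen after its values were seen, fell most, from 20.2 and 22.0 CPM in parental ESCs to 2.89 and 2.59 CPM in the PRAMEL7 WT line and 4.77 and 4.70 CPM in the PRAMEL7 ΔN line. It lies on chromosome 11, and relative to the median of that chromosome its log2 fold changes were -2.19 and -1.63.

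Textbook targets activated by MYC, most of them genes of ribosome production, translation and nucleotide synthesis, did not move one way. Of 46 tested, 6 rose and 5 fell in the PRAMEL7 WT line (23.9% called), 2 rose and 4 fell in the PRAMEL7 ΔN line (13.0%), and 6 were higher and 2 lower in the PRAMEL7 WT than in the PRAMEL7 ΔN line (17.4%). Of all genes tested, 25%, 19.9% and 20.4% were called in turn. The medians were 0.035, 0.0074 and -0.046, beside those of all genes given above. Relative to the median of each gene's chromosome, 6 rose and 1 fell in the PRAMEL7 WT line, 5 rose and 1 fell in the PRAMEL7 ΔN line, and 4 were higher and 1 lower between them. *Cdk4*, a cell-cycle kinase, rose in the PRAMEL7 WT line, from 457 and 419 CPM to 645 and 644 CPM (log2 fold change 0.56, adjusted p = 0.00235). *Prmt1*, an arginine methyltransferase, rose there as well (log2 fold change 0.52, adjusted p = 0.00372), whereas *Tfrc*, the transferrin receptor, fell from 324 to 202 CPM (log2 fold change -0.68, adjusted p = 0.00555). *Hk2*, a hexokinase, fell in both derived lines (by 0.58 and 0.40, adjusted p = 0.00335 and 0.0160), though relative to the median of its chromosome 6 the first value was -0.28 (adjusted p = 0.0725). The calls in the PRAMEL7 WT line were lost without library 1 of that line for *Prmt1* (adjusted p = 0.0519), *Tfrc* and *Hk2*, and also without library 2 for *Tfrc* (up to 0.0586), and that of *Hk2* in PRAMEL7 ΔN was lost without either library of that line.

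In the PRAMEL7 ΔN line, where *Myc* was high, 2 of the 46 activated targets rose, *Nop2* and *Paics*. Another 4 fell, among them *Pes1* and *Hk2*. The share called was 13.0%, beside 19.9% of all genes, and the part of *Myc* in these changes was not tested. *Nop2*, a nucleolar RNA methyltransferase on chromosome 6, was at 390 and 385 CPM in parental ESCs, 401 and 389 CPM in the PRAMEL7 WT line and 613 and 554 CPM in the PRAMEL7 ΔN line (log2 fold change 0.59, adjusted p = 0.00169; 0.51 relative to the median of its chromosome). *Paics*, an enzyme of purine synthesis, rose from 707 to 942 CPM (log2 fold change 0.41, adjusted p = 0.0166), a call lost without either PRAMEL7 ΔN library. *Pes1*, a ribosome assembly factor on chromosome 11, fell (log2 fold change -0.47, adjusted p = 0.00509; -0.16 relative to its chromosome), and the call was lost without PRAMEL7 ΔN library 2. *Ccnd1*, the cyclin D1 gene, was at 106 CPM in parental ESCs, 146 CPM in the PRAMEL7 WT line and 79.5 CPM in the PRAMEL7 ΔN line. Its log2 fold change against parental ESCs was 0.47 in the PRAMEL7 WT and -0.40 in the PRAMEL7 ΔN line. The log2 difference of *Ccnd1* between the derived lines was 0.86 (adjusted p = 7.07e-04). *Tfap4*, an E-box factor, was 0.62 higher in the PRAMEL7 WT than in the PRAMEL7 ΔN line (adjusted p = 0.00951), a call lost without either PRAMEL7 WT library or PRAMEL7 ΔN library 2.

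Genes that MYC is known to repress were likewise split. Of 12 tested, 1 rose and 2 fell in the PRAMEL7 WT line, and 2 rose and 1 fell in the PRAMEL7 ΔN line. The share called was 25% in each of these comparisons, against 25% and 19.9% of all genes. Between the derived lines 3 were higher and 2 lower in the PRAMEL7 WT line (41.7% called, against 20.4% of all genes). *Klf2*, a zinc finger factor of the naive state, changed most, from 148 and 182 CPM in parental ESCs and 156 and 182 CPM in the PRAMEL7 WT line to 68.0 and 61.0 CPM in the PRAMEL7 ΔN line. Its log2 fold change was -1.34 (SE 0.12, adjusted p = 1.67e-04), and the call was kept under each alternative. The cell-cycle inhibitor gene *Cdkn1b* and the stress gene *Gadd45a* rose in the PRAMEL7 ΔN line, by 0.69 and 0.86 on the log2 scale (adjusted p = 0.0121 and 9.33e-04). Both lie on chromosome 6 and stood at 0.61 and 0.79 relative to its median. *Ndrg1* and *Ndrg2*, named for their repression by MYC proteins, fell in the PRAMEL7 WT line by 0.62 and 0.66 (adjusted p = 0.00839 and 0.0123). Both calls were lost without either PRAMEL7 WT library (adjusted p up to 0.0882 and 0.121), and that of *Cdkn1b* in PRAMEL7 ΔN without either PRAMEL7 ΔN library (up to 0.0955).

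**Figure D4:**
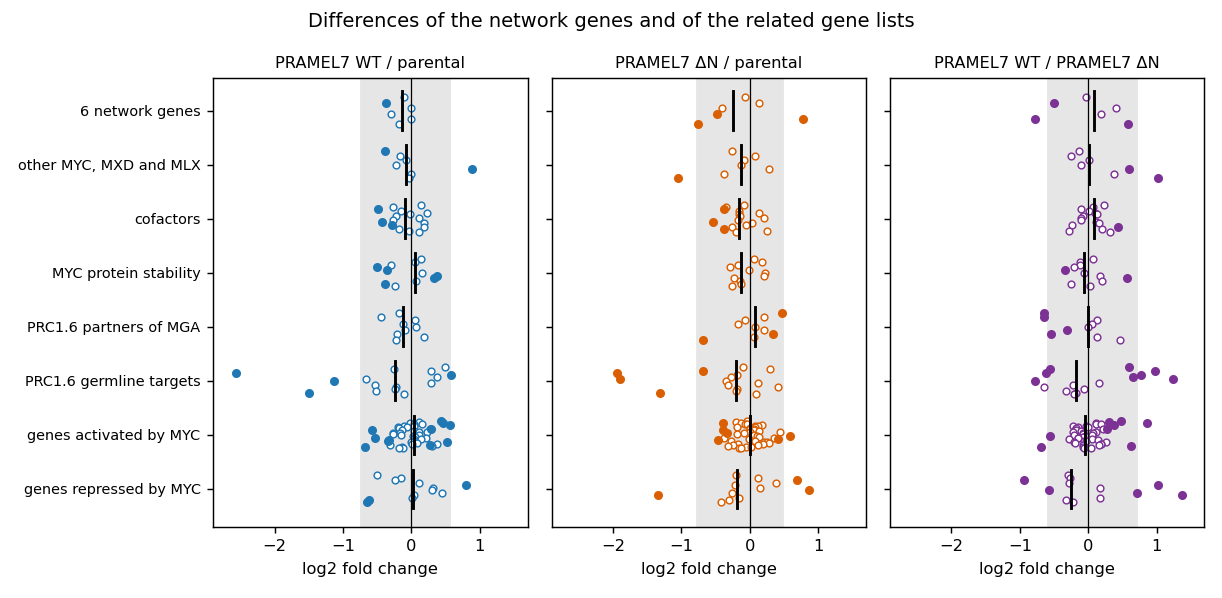
Log2 fold change of each tested gene (point; filled where the adjusted p was below 0.05) of the 6 network genes and the 7 related lists in the 3 comparisons, with the list median as a black bar and the 5th to 95th percentile of all genes as a grey band. List medians lay between -0.25 and 0.083. Among the genes below the band in PRAMEL7 ΔN were *Meioc* at -1.95, *Smc1b* at -1.90, *Klf2* at -1.34 and *Mycl* at -1.05. In PRAMEL7 WT they included *Meioc* at -2.56 and *Stag3* at -1.14. Other genes lay above the band, among them *Gadd45a* at 0.86 and *Myc* at 0.77 in PRAMEL7 ΔN.

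The start regions of these genes were read for the E-box CACGTG, a palindrome that reads alike on both strands, in the window from 250 bases before to 50 bases after each start site (RefSeq, GRCm38.p6, start site counted as 0). The letters were present in 7.15% of the 32851 windows of all genes, in 34.1% of the 44 windows of the activated MYC targets and in 60% of the 20 windows of the PRC1.6 germline targets. The shares were 33.3% for the other MYC, MXD and MLX genes, 5.56% for cofactors, 6.67% for stability genes, 11.1% for PRC1.6 genes and 13.3% for repressed targets. The median number of CG pairs was 7 over all windows but 22.5 in those of activated and 23.5 in those of germline targets, and its part in the shares was not tested. Of the 6 network genes, 5 had an entry, and 2 of these, *Max* and *Mnt*, held an E-box. The windows of *Mycn*, *Mga* and *Mxi1* held none, though *Mga* had the related CACGCG, on the opposite strand, at -21 to -16. Shown first are *Max*, with the E-box from -3 to 2, across the start site, and *Mnt*, with the E-box from -123 to -118.
*Max*, chr12:76962221-76962276, minus strand: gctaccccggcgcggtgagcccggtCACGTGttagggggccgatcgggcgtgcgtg
*Mnt*, chr11:74830776-74830831, plus strand: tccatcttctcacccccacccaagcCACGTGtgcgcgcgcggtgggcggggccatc
The E-box is in capitals, with 25 bases on each side. Of the 30 list genes that the rule for naming genes selected, 25 had an entry and 8 held an E-box. Of these, a pair from each target list is shown as examples: the germline genes *Stag3* (-170 to -165) and *Mael* (-223 to -218), and the activated targets *Cdk4*, with 4 E-boxes of which the one nearest the start is given (-11 to -6), and *Nop2* (-60 to -55).
*Stag3*, chr5:138280314-138280369, plus strand: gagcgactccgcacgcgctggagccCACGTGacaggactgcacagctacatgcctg
*Mael*, chr1:166238937-166238992, minus strand: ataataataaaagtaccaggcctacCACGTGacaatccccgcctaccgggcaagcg
*Cdk4*, chr10:127063499-127063554, plus strand: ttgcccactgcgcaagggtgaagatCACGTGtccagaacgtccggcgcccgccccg
*Nop2*, chr6:125131798-125131853, plus strand: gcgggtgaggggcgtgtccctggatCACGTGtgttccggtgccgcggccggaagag
The windows of *Mycl*, *Klf2* and *Smc1b*, which fell in the PRAMEL7 ΔN line, held no E-box. A match of letters is a description of the window and no record of binding.

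The genes whose levels followed *Myc* most closely over the 6 libraries were sought among 8559 genes by the root mean square difference of centred log2 levels. They were *Tigar* (0.036), *Skap2* (0.052) and *0610030E20Rik* (0.062). *Tigar*, a regulator of sugar metabolism, was at 92.2 and 78.3 CPM in parental ESCs, 80.8 and 81.0 CPM in the PRAMEL7 WT line and 143 and 136 CPM in the PRAMEL7 ΔN line. All 3 lie on chromosome 6, unlike *Myc*. The 603 genes tested on chromosome 6 had a median log2 fold change of 0.25 in the PRAMEL7 ΔN line. The part of this shift in the likeness was not tested. The genes closest to *Mycn* were *Dis3l2* (0.044), *Stat5b* (0.047) and *Map1b* (0.056), on chromosomes 1, 11 and 13. *Dis3l2*, a 3′ to 5′ exoribonuclease, was at 48.9 and 60.1 CPM in parental ESCs, 49.7 and 48.9 CPM in the PRAMEL7 WT line and 33.8 and 32.2 CPM in the PRAMEL7 ΔN line, with the higher value in the same parental library as *Mycn*.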

How the data were processed

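RNA-seq of 6 libraries (3 lines, 2 libraries each) was used. Per the labels and the methods of the study, polyA RNA was sequenced single end; whether reads were counted by strand is not given in the sources used here. According to the submitters' processing notes, SortMeRNA 2.1, Trimmomatic 0.36 and STAR 2.4.0.1 were used, with mm10 as the build. The deposited values were RPKM, made by the authors from coverage of exons. Tables of comparisons by the authors, which hold mean reads, log2 fold changes with errors, scores and p-values, were not used, and 6 ChIP and input samples were not analysed here.

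The table held 50978 genes. Left out were 176 with repeated or date-like names, 2796 not found in GENCODE vM21 and 66 found more than once, which left 47940. *Cip2a* had no match. Tested on the values, the length behind RPKM was the gene span less 1 base. RPKM times that length was a whole multiple of one step per library for 98.3% to 98.5% of values up to 20 reads (within 0.1 read), so whole reads were recovered. CPM was RPKM times the length and one constant for all libraries, which keeps the scaling of the authors.

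The test was limma 3.58.1 (R 4.3.3) on log2(CPM + 1), fitted to the 3 lines together with trended variances, for genes that exceeded 1 CPM in 2 or more libraries. It was checked on simulated data. Fold changes are on that scale and understate those of low genes. Calls are Benjamini-Hochberg adjusted p below 0.05 over 12914 genes. The libraries are labelled only as replicates, so p-values measure the spread between libraries of 1 line, whatever kind of replicate these were. Named from each list and comparison were up to 2 genes per direction with the largest change among those called with a mean of at least 10 CPM. One gene so selected is not reported here. Genes outside this rule are said to be chosen after their values were seen. The members and lists were chosen with earlier results of these data known. Alternatives were other pseudocounts, filters and scalings, centring by chromosome, a replicate block, only the compared lines, no trend, RPKM without conversion, voom on whole reads, leaving out each library and, for levels, the longest transcript. For named genes of the lists, those other than the filters and left-out libraries were added after seeing the data.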

Additional observations from a re-analysis of the deposited data

Results flagged for a closer look

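The derived lines differed from each other, in the direct test of PRAMEL7 WT against PRAMEL7 ΔN, for 3 of the 6 network genes, against 20.4% of all genes tested. The log2 fold change of PRAMEL7 WT over PRAMEL7 ΔN was -0.78 for *Myc* (adjusted p = 9.56e-04, limma), 0.58 for *Mycn* (adjusted p = 0.00976) and -0.51 for *Mga* (adjusted p = 0.00386). The *Mycn* call was lost without any one PRAMEL7 WT or PRAMEL7 ΔN library, and that of *Mga* without PRAMEL7 WT library 1 or PRAMEL7 ΔN library 2. Groups of 2 libraries were too small for a test of single libraries that stand apart.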

How the results depend on the processing

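Member values that changed sign had not passed the test in the report. *Myc* in PRAMEL7 WT against parental ESCs was 0.061 with quantile normalization, 0.015 with upper-quartile and 0.077 with median-ratio scaling, and *Mnt* was 0.048, 0.023 and 0.085 in turn, and 0.37 centred by chromosome. *Max* centred by chromosome was 0.014 in PRAMEL7 WT, 0.011 in PRAMEL7 ΔN and 0.0031 between them. With single libraries left out, *Myc* in the PRAMEL7 WT line ranged from -0.10 to 0.083, *Mycn* from -0.37 to 0.017, *Mnt* from -0.19 to 0.18, and *Max* between the derived lines from -0.090 to 0.035.

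Counts of genes called moved as follows, for PRAMEL7 WT against parental, PRAMEL7 ΔN against parental and PRAMEL7 WT against PRAMEL7 ΔN in turn. Without a filter they were 1896, 1694 and 1427, and with RPKM unconverted 2106, 1678 and 1546. With only the compared lines they were 1700 for PRAMEL7 ΔN against parental and 4647 between the derived lines. With single libraries left out they ranged from 706 to 4374, from 838 to 4283 and from 713 to 4648. Members called ranged from 0 to 3, 2 to 4 and 1 to 4 with libraries left out, and RPKM unconverted left 0 in the first. Genes called over the other lists were 16, 10 and 18 without a filter, and ranged from 6 to 44, 9 to 44 and 6 to 47 with libraries left out. With the longest transcript, the share of *Myc* was 25.1% in PRAMEL7 WT and 46.6% in PRAMEL7 ΔN, the sum of *Myc* and *Mycn* was 81.1, 73.3 and 68.6 in the 3 lines, and 3 places of the order in PRAMEL7 ΔN kept their gene. Of 51 calls named over the lists, 17 held under each alternative and none changed sign.

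Replicate numbers did not mark a pairing: deviations of libraries numbered 1 correlated at 0.21, -0.25 and -0.10 between lines. With the replicate block, 2729, 2112 and 2186 genes were called, in place of 3234, 2566 and 2630, and the block changed no call of a member. With 2 libraries a line, small differences were not detectable, and leaving out one assumes that the lone library varies like the others.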
